A study of Homo sapiens with 11 samples.

Results

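The 9 genes described here encode proteins of the cardiac Z-disc and the neighbouring titin spring that have been linked to the sensing of stretch: ANKRD1, FHL1, FHL2, CSRP3, MYOZ2, MYPN, PDLIM3, PDLIM5 and SYNPO2L. They were chosen by name for that role, with earlier results of these data known, and all 9 were among the 19990 genes of the count table. The samples were cardiomyocytes derived from the human iPSC line WTC11 (an established line of induced pluripotent stem cells) at passage 63. Differentiation was directed with CHIR99021 (an inhibitor of the kinase GSK3) and then IWP2 (an inhibitor of Wnt secretion), and the wells were then held in RPMI1640 medium with B27 containing insulin. Poly(A) RNA was sequenced from 4 wells collected on Day 30, 3 wells on Day 60 and 4 wells on Day 113, with no other treatment between groups. The labels number the replicates as wells, name a single line and no separate differentiations, and describe no sort of the cells, so the p-values measure only the spread between wells. Each day of culture was also its own collection, and the effects of the 2 cannot be told apart.

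The Z-disc is the plate at each end of a sarcomere in which alpha-actinin crosslinks actin filaments and anchors titin, the giant protein that works as a molecular spring. Several adaptor proteins sit on alpha-actinin or on the extensible part of titin, and some of them move to the nucleus or hold signalling enzymes such as calcineurin, protein kinases C and D, and MAP kinases, which ties mechanical load to gene expression. Mutations in several of their genes cause human cardiomyopathy or myopathy, and ANKRD1 and FHL1 are widely used as markers of a loaded or hypertrophic heart.

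Each library held 24.1 to 34.5 M counts (M stands for 1000000), and the counts of the 9 genes ran from 671 to 82233 per library, so counting error was small beside the spread between wells. The 10 cardiomyocyte markers examined were present in every library, at a summed level of 32600 to 44600 CPM (counts scaled to a library of 1000000) at Day 30, 40000 to 45500 CPM at Day 60 and 35500 to 40500 CPM at Day 113. Markers of other cell types were present as well. The sum of 9 fibroblast markers ran from 6880 to 18100, 2610 to 4320 and 6420 to 16100 CPM at Days 30, 60 and 113, none of the 9 was at 0 in any well, and the highest of them over all wells was FN1. The sum of 7 endothelial markers ran from 73.9 to 103, 46.9 to 74.7 and 211 to 806 CPM, with PECAM1 the highest over all wells and CLEC14A at 0 in at least 1 well. The 5 smooth muscle markers in the table, led by CNN1, summed to 604 to 905, 746 to 971 and 947 to 1390 CPM, and the 4 skeletal muscle markers in the table, led by ACTN3, summed to at most 14.9 CPM in any well, with MYOD1 and MYOG at 0 in some. Epicardial markers, led by TBX18, summed to 96.5 to 134 CPM at Day 30, 147 to 205 CPM at Day 60 and at least 185 CPM at Day 113. Endodermal markers, led by AFP, summed to 430 to 1260, 46.7 to 54.1 and 27.0 to 45.4 CPM with TTR, FOXA2 and SOX17 at 0 in some wells, and cycling markers, led by TOP2A, to 337 to 422, 528 to 773 and 201 to 397 CPM. In such mixed wells, fewer cells of a type and less RNA per cell cannot be told apart.

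Upstream sequence is shown for FHL2 and ANKRD1, the 2 genes with the largest changes by Day 60, because they moved in opposite directions and motifs of cardiac regulators are found there. The RefSeq promoter table (GRCh38.p14) held 8 of the 9 genes, and CSRP3 was not matched. The table's 250 bases before the start lie outside every GENCODE 29 exon for FHL2. For ANKRD1 189 of the 250 lie in annotated exons, and for MYPN all 250 do. Printed are only the bases outside exons, chr2:105438514-105438763 (minus strand) for FHL2 and chr10:90921277-90921337 (minus strand) for ANKRD1, 5′ to 3′ on the strand of the gene, with motif matches in capitals.
FHL2: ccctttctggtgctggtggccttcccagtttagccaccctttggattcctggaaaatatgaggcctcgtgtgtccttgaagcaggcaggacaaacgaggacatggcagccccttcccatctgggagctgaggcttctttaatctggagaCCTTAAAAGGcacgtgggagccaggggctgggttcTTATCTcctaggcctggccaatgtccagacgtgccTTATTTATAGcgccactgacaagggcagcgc
ANKRD1: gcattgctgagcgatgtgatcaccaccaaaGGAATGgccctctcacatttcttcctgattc

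The motifs searched, on both strands, were M-CAT, GATA, CArG and MEF2. The M-CAT motif of the TEAD factors (CATTCC) was found at 2 places before ANKRD1, 220 to 215 and 128 to 123 bases before the RefSeq start, of which the first lies outside exons and is printed. It was also found at 2 places before MYPN, 197 to 192 and 53 to 48 bases before the start, both within annotated exons. It was in 2 of the 8 matched members, and in 14.0% of 35116 promoters of 300 bases. The GATA motif (AGATAA, in 10.3% of promoters) was in 3 members. Among them were ANKRD1 at 52 to 47 bases before the start, within an annotated exon, and FHL2 at 66 to 61. The CArG box, the site of serum response factor, was in 1 member, FHL2, 101 to 92 bases before the start (1.29% of promoters). The MEF2 box was in 3 members, FHL2, MYOZ2 and SYNPO2L, against 2.99% of promoters. In MYOZ2 it lies 52 to 43 bases before the start, partly in an annotated exon. Matches of different motifs in the printed windows did not overlap. These are matches of letters, not measured sites.

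Of all counts, 0.447% ± 0.0322 (SD, n = 4) fell to the 9 genes at Day 30. The Day 60 share was 0.569% ± 0.031 (SD, n = 3), the Day 113 share 0.505% ± 0.0299 (SD, n = 4). By the means of each day, the 9 genes followed 3 courses. ANKRD1 and SYNPO2L were lowest at Day 60, FHL2, CSRP3 and MYPN were highest at Day 60, and FHL1, MYOZ2 and PDLIM3 were highest at Day 113, while PDLIM5 stayed near one level. For SYNPO2L, MYPN and MYOZ2 the difference between Day 60 and Day 113 did not pass the test used below. With edgeR's quasi-likelihood test over all 19990 genes, from which every adjusted p-value below comes unless a permutation test is named, 8 of the 9 changed over the 3 days, where 37.1% of all genes did. The exception was PDLIM5 (adjusted p 0.929). This share of all genes, like those below, covers genes at any level of expression. The 9 genes were not set against genes of similar level.

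**Figure D1:**
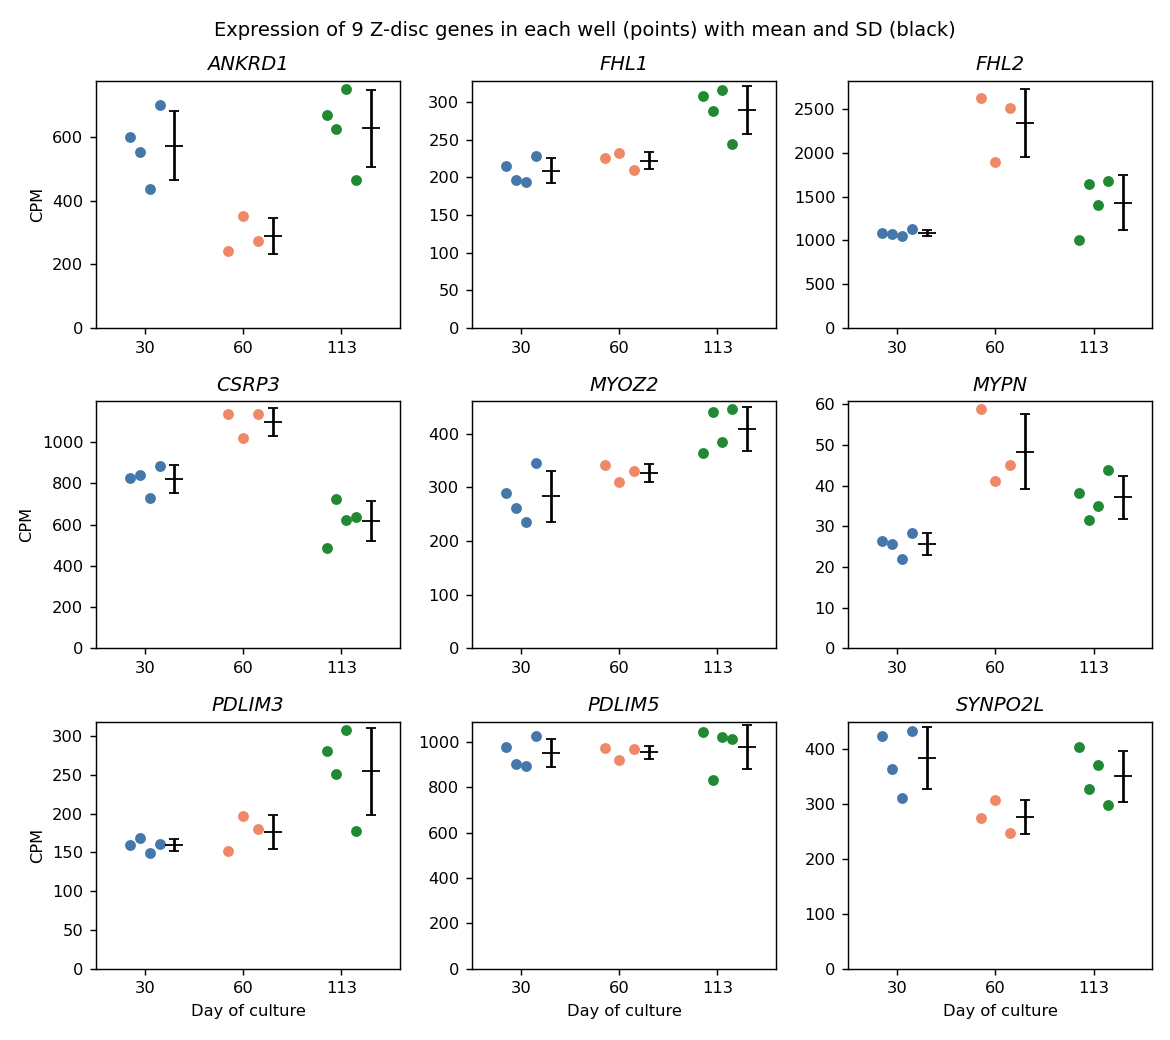
CPM (y axis from 0) of the 9 genes in each of the 11 wells (points) by day of culture, with the mean and SD of each day in black. ANKRD1 at Day 60 (242 to 351 CPM) lies below all wells of both other days, and FHL2 at Day 60 (1899 to 2625 CPM) lies above them.

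Between Day 30 and Day 60, 5 of the 9 genes passed an adjusted p of 0.05, 3 higher (FHL2, CSRP3, MYPN) and 2 lower (ANKRD1, SYNPO2L). Among all genes 10.3% passed, 4.39% higher and 5.91% lower. The same 5 genes had wells that did not overlap between the days, against 24.8% of all genes. The median log2 change of the 9 was 0.14, beside -0.01 over all genes. The count of 5 fell to 3 without Day 30 replicate 1 or 2, or Day 60 replicate 1 or 3.

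Between Day 60 and Day 113, 5 of the 9 passed, 3 higher (ANKRD1, FHL1, PDLIM3) and 2 lower (FHL2, CSRP3), where 24% of all genes passed, 12.9% higher and 11.1% lower. Wells did not overlap for 5 of the 9, against 30.6% of all genes. The median log2 change was 0.32, beside 0.00 over all genes. From Day 30 to Day 113, 6 of the 9 passed, 5 higher and 1 lower (CSRP3), where 34.5% of all genes passed, 17.3% higher and 17.2% lower. Wells did not overlap for 5 of the 9 (35.1% of all genes), and the median log2 change was 0.40 beside -0.02.

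Scaling each library to its summed cardiomyocyte marker counts in place of its TMM-scaled total moved the median log2 change of all genes to -0.13, 0.18 and 0.04 for the 3 pairs of days. The share of higher genes among all calls moved with it, from 42.6% to 28.8% at Day 60 against Day 30 and from 53.7% to 75% at Day 113 against Day 60. For the difference between intervals it moved from 53.2% to 78.9%, and to 40.2% with upper-quartile scaling. Among the 9 genes no called direction turned under either scaling. The marker sum is led by MYH7, which averaged 15410, 14520 and 9277 CPM at Days 30, 60 and 113. After Day 60 MYH7 was itself lower (log2 change -0.65, adjusted p 0.00404), and 1 of the 10 markers was higher. This scale is therefore not a measure of cardiomyocyte content alone, and the part of MYH7 in the shifts was not tested.

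The change differed between the 2 intervals, which last 30 and 53 days and share the Day 60 wells, for 5 of the 9 genes when the difference itself was tested: ANKRD1, FHL2, CSRP3, MYPN and SYNPO2L. Among all genes 9.34% passed that test. The later change was above the earlier one for 2 of the 9 (4.97% of all genes) and below it for 3 (4.38%). Without Day 60 replicate 1 the count was 3. Genes that passed in both intervals and turned direction were 3 of the 9. FHL2 and CSRP3 rose and then fell, as did 0.915% of all genes, and ANKRD1 fell and then rose, as did 1.45%.

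**Figure D2:**
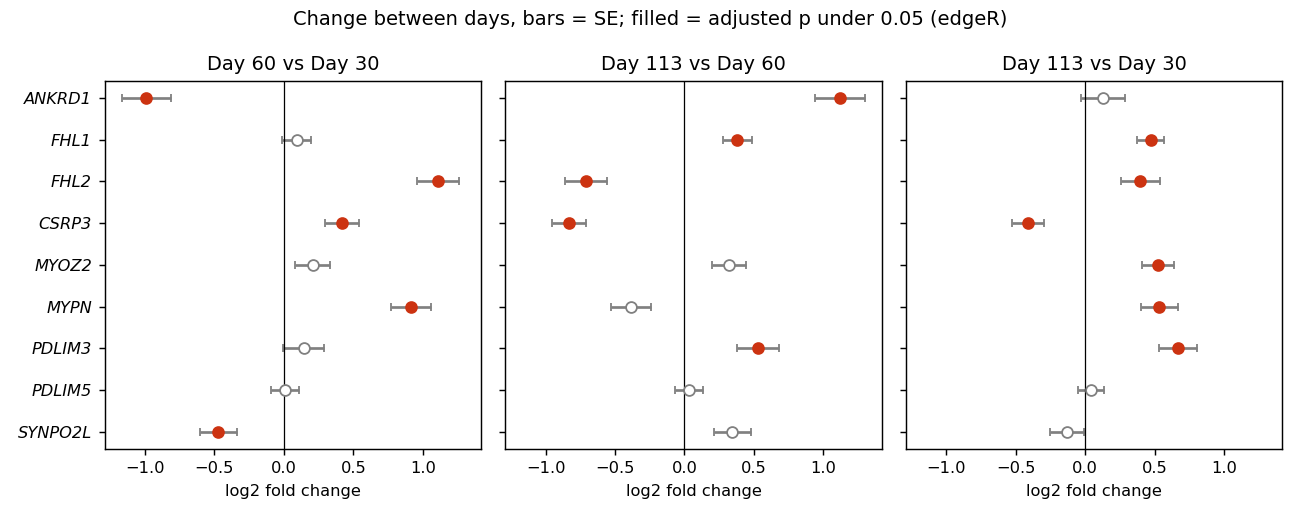
Log2 fold change (x axis) of each gene for the 3 pairs of days, with bars for the standard error and filled points for an adjusted p under 0.05. ANKRD1 lies at -0.99 and 1.12 in the first 2 panels and at 0.13 in the third, FHL2 at 1.11, -0.71 and 0.40.

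ANKRD1, FHL2 and FHL1 bind the titin spring. ANKRD1 (chromosome 10, 90912096 to 90921276, minus strand, hg38), also called CARP, is an ankyrin-repeat protein that binds the N2A region of titin and also acts in the nucleus as a cofactor of transcription. Its level was 602.7, 554.8, 437.6 and 702.1 CPM in the Day 30 wells, 242.4, 351.4 and 273.8 CPM in the Day 60 wells, and 670.3, 625.3, 751.6 and 465.1 CPM in the Day 113 wells. All 3 Day 60 wells were below all 8 other wells, and the Day 30 and Day 113 wells overlapped. ANKRD1 was 1.99-fold lower at Day 60 than at Day 30 (log2 change -0.99 ± 0.18, SE; adjusted p 0.0021) and 2.17-fold higher at Day 113 than at Day 60 (1.12 ± 0.18, SE; adjusted p 0.00039). Between Day 30 and Day 113 its log2 change was 0.13 ± 0.16 (SE; adjusted p 0.58).

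The summed fibroblast markers were lowest at Day 60 as well, but their genes did not share one course. At Day 60, 4 of the 9 fibroblast markers were lower than at Day 30 and 1 was higher, and from Day 60 to Day 113, 6 were higher and 1 lower. COL1A2 and FN1 passed in both intervals as lower and then higher, while PDGFRA was lower in both and POSTN higher in both. Within Day 30 the order was not the same: replicate 4, with the highest ANKRD1 of that day, had the lowest fibroblast sum, 6883 CPM, and replicate 3, with the lowest ANKRD1, had 15650 CPM. Within Day 113, replicate 4 had both the lowest ANKRD1 and the lowest fibroblast sum, 6416 CPM. The part of other cell types in the ANKRD1 result was not tested. Scaled to cardiomyocyte marker counts, the log2 changes of ANKRD1 were -1.07 (adjusted p 0.00033) and 1.29 (adjusted p 3.1e-05).

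FHL2 (chromosome 2, 105357712 to 105438513, minus strand) encodes a protein built of LIM domains that docks metabolic enzymes on the N2B region of titin and can restrain calcineurin and ERK signalling. It was at 1087, 1076, 1055 and 1130 CPM at Day 30, at 2625, 1899 and 2510 CPM at Day 60 and at 1007, 1642, 1400 and 1683 CPM at Day 113. The Day 30 wells lay close together, with a coefficient of variation of 2.92%, and every Day 60 well was above every well of the other days. FHL2 was 2.16-fold higher at Day 60 than at Day 30 (log2 change 1.11 ± 0.15, SE; adjusted p 0.00029), and then 1.64-fold lower (-0.71 ± 0.15, SE; adjusted p 0.0035).

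At Day 113 FHL2 was still higher than at Day 30, by 0.40 ± 0.14 (SE) on the log2 scale (adjusted p 0.041), but Day 113 replicate 1 fell below all Day 30 wells. This last call was marginal. The log2 change stayed between 0.31 and 0.54 with any 1 well left out, but the adjusted p was 0.085, 0.077, 0.089 or 0.063 without Day 30 replicate 1, 2, 3 or 4, and 0.096, 0.065 or 0.13 without Day 113 replicate 2, 3 or 4, and 0.058 with upper-quartile scaling. An antisense transcript overlaps 1.84% of the exon bases of FHL2, and whether strand was used in counting is not given in the sources used here.

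FHL1 (chromosome X, 136146702 to 136211359, plus strand), the relative of FHL2, binds the N2B region as a scaffold for MAP kinases and is mutated in reducing body myopathy and Emery-Dreifuss muscular dystrophy. FHL1 was at 215.4, 196.0, 194.1 and 228.8 CPM at Day 30, at 225.4, 231.9 and 209.7 CPM at Day 60 and at 308.7, 288.4, 316.3 and 244.7 CPM at Day 113. Wells of the first 2 days overlapped, and every Day 113 well was above them. FHL1 was 1.39-fold higher at Day 113 than at Day 30 (log2 change 0.47 ± 0.10, SE; adjusted p 0.0013). After Day 60 the log2 change was 0.38 ± 0.11 (SE; adjusted p 0.015, and 0.072 without Day 60 replicate 3), and before it 0.09 ± 0.10 (SE; adjusted p 0.69).

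CSRP3, MYPN and MYOZ2 belong to the Z-disc proper. CSRP3 (chromosome 11, 19182037 to 19210571, minus strand) encodes muscle LIM protein, which binds telethonin and alpha-actinin at the Z-disc and is a known cardiomyopathy gene. CSRP3 was at 827.5, 842.7, 729.8 and 886.0 CPM at Day 30, at 1137, 1020 and 1134 CPM at Day 60 and at 485.3, 723.1, 622.4 and 637.9 CPM at Day 113. No wells overlapped between any 2 of the 3 days, with Day 60 highest and Day 113 lowest. CSRP3 fell 1.78-fold from Day 60 to Day 113 (log2 change -0.83 ± 0.12, SE; adjusted p 2e-04) and was 1.33-fold lower at Day 113 than at Day 30 (-0.41 ± 0.11, SE; adjusted p 0.01).

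The earlier rise of CSRP3, by 0.42 ± 0.12 (SE) on the log2 scale, had an adjusted p of 0.039. The log2 change stayed between 0.36 and 0.47 with any 1 well left out, but the adjusted p passed 0.05 without Day 30 replicate 1 (0.083), 2 (0.063) or 3 (0.12), without Day 60 replicate 1 (0.11), 2 (0.053) or 3 (0.11), and without Day 113 replicate 3 (0.052). Scaled to cardiomyocyte marker counts, the rise was 0.31 (adjusted p 0.2) and the difference from Day 30 to Day 113 was -0.35 (adjusted p 0.051). CSRP3 was the only one of the 9 to be lower at Day 113 than at Day 30 beyond the threshold.

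MYPN (chromosome 10, 68106117 to 68212017, plus strand) encodes myopalladin, which ties alpha-actinin to nebulette and binds ANKRD1. MYPN was at 26.43, 25.75, 22.08 and 28.31 CPM at Day 30, at 58.85, 41.13 and 45.17 CPM at Day 60 and at 38.1, 31.64, 34.89 and 43.89 CPM at Day 113. All wells of both later days were above all Day 30 wells. MYPN was 1.89-fold higher at Day 60 (log2 change 0.92 ± 0.14, SE; adjusted p 0.00072) and 1.45-fold higher at Day 113 (0.53 ± 0.13, SE; adjusted p 0.0058) than at Day 30. Between Day 60 and Day 113 its log2 change was -0.38 ± 0.14 (SE; adjusted p 0.065). That difference passed under upper-quartile scaling (adjusted p 0.034), in DESeq2 (0.048) and with a replicate block (0.014), and also without Day 60 replicate 2 (0.039) or Day 113 replicate 4 (0.032).

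MYOZ2 (chromosome 4, 119135784 to 119187789, plus strand) encodes calsarcin-1, which tethers calcineurin to alpha-actinin. MYOZ2 was at 290.4, 261.1, 236.3 and 346.0 CPM at Day 30, at 340.9, 309.2 and 330.7 CPM at Day 60 and at 364.0, 441.1, 383.7 and 445.4 CPM at Day 113. All Day 113 wells were above all others, and Day 30 replicate 4 was above all Day 60 wells. MYOZ2 was 1.44-fold higher at Day 113 than at Day 30 (log2 change 0.53 ± 0.11, SE; adjusted p 0.002), with 0.21 ± 0.12 (SE; adjusted p 0.35) before Day 60 and 0.32 ± 0.12 (SE; adjusted p 0.072) after it. The later difference passed without Day 30 replicate 4 (adjusted p 0.044) or Day 113 replicate 1 (0.043), with library totals as the scale (0.045) and scaled to cardiomyocyte marker counts (0.011).

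PDLIM3, PDLIM5 and SYNPO2L are scaffolds bound to alpha-actinin. PDLIM3 (chromosome 4, 185500660 to 185535612, minus strand) encodes ALP, a PDZ and LIM domain protein that strengthens the link between alpha-actinin and actin. PDLIM3 was at 160.1, 168.6, 149.4 and 161.3 CPM at Day 30, at 152.2, 196.5 and 180.4 CPM at Day 60 and at 280.8, 251.3, 307.2 and 177.8 CPM at Day 113. Day 113 replicates 1 to 3 were above all earlier wells, and replicate 4 lay within the range of Day 60.

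PDLIM3 was 1.59-fold higher at Day 113 than at Day 30 (log2 change 0.67 ± 0.14, SE; adjusted p 0.0013). After Day 60 the log2 change was 0.53 ± 0.15 (SE; adjusted p 0.017), which rose to 0.093 when Day 60 replicate 1 was left out, to 0.055 when Day 113 replicate 3 was, and to 0.051 with only the libraries of the 2 days. Smooth muscle cells also express PDLIM3, and 3 of the 5 smooth muscle markers in the table were higher at Day 113 than at Day 60 and none lower. The part of those cells in the PDLIM3 result was not tested.

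PDLIM5 (chromosome 4, 94451857 to 94668227, plus strand) encodes ENH, which brings protein kinases C and D to the Z-disc. PDLIM5 was at 979.0, 902.1, 895.0 and 1024 CPM at Day 30, at 973.4, 921.7 and 969.8 CPM at Day 60 and at 1045, 832.3, 1021 and 1013 CPM at Day 113. The wells of the 3 days overlapped, and all log2 changes between pairs of days were between 0.01 and 0.04, with standard errors of 0.09 to 0.10. From Day 30 to Day 113 the change was 0.04 ± 0.09 (SE; adjusted p 0.77), and it lay between 0.01 and 0.12 over all alternative settings and left-out wells.

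SYNPO2L (chromosome 10, 73644881 to 73663803, minus strand) encodes CHAP, a heart-enriched Z-disc relative of synaptopodin that binds alpha-actinin. SYNPO2L was at 423.0, 364.1, 311.6 and 433.3 CPM at Day 30, at 273.6, 307.7 and 246.7 CPM at Day 60 and at 403.6, 327.3, 371.2 and 298.5 CPM at Day 113. The Day 60 wells were below all Day 30 wells and overlapped those of Day 113. SYNPO2L was 1.39-fold lower at Day 60 than at Day 30 (log2 change -0.47 ± 0.13, SE; adjusted p 0.032). Between Day 60 and Day 113 the log2 change was 0.34 ± 0.13 (SE; adjusted p 0.073), and from Day 30 to Day 113 it was -0.13 ± 0.12 (SE; adjusted p 0.46).

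For the fall of SYNPO2L by Day 60, leaving out Day 30 replicate 1, 2 or 4 gave an adjusted p of 0.097, 0.073 or 0.09, and leaving out Day 60 replicate 1 or 3 gave 0.12 or 0.19, while the log2 change stayed between -0.56 and -0.37. The later difference passed without Day 113 replicate 4 (adjusted p 0.04), with library totals as the scale (0.048) and scaled to cardiomyocyte marker counts (0.012). An antisense transcript overlaps 2.95% of the exon bases of SYNPO2L.

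Levels of different genes were compared as CPM per kilobase of exon (GENCODE 29, GRCh38, all annotated exons merged). On this scale CSRP3 was highest on every day, at 501.5 ± 40.3 (SD, n = 4) on Day 30, 669.7 ± 40.5 (SD, n = 3) on Day 60 and 376.8 ± 60.1 (SD, n = 4) on Day 113, in places 25, 18 and 38 among the 16789 genes with a length. ANKRD1 (290.2 ± 55.5, SD, n = 4) was above FHL2 (164.1 ± 4.78, SD, n = 4) at Day 30. At Day 60 the order turned, to 146.1 ± 28.3 for ANKRD1 and 353.9 ± 58.9 for FHL2 (SD, n = 3 each), and in neither case did the wells of the 2 genes overlap. At Day 113 CSRP3, ANKRD1, FHL2 and MYOZ2 followed in that order, and each overlapped its neighbour. MYPN was lowest on every day (3.63 ± 0.370, 6.85 ± 1.32 and 5.26 ± 0.739, SD), and no well reached the next gene.

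Between these ends, MYOZ2, PDLIM5, SYNPO2L, FHL1 and PDLIM3 followed in that order at Day 30, where MYOZ2 overlapped PDLIM5 and PDLIM5 overlapped SYNPO2L. At Day 60 MYOZ2 overlapped ANKRD1 above it. The place of PDLIM3 depends on the exon model, since all merged exons span 9.12 kb and those of the basic transcript set 3.10 kb. With the basic set PDLIM3 was at 56.99 CPM per kilobase at Day 60 in place of 19.35, which moved it from place 8 to place 6 of the 9.

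**Figure D3:**
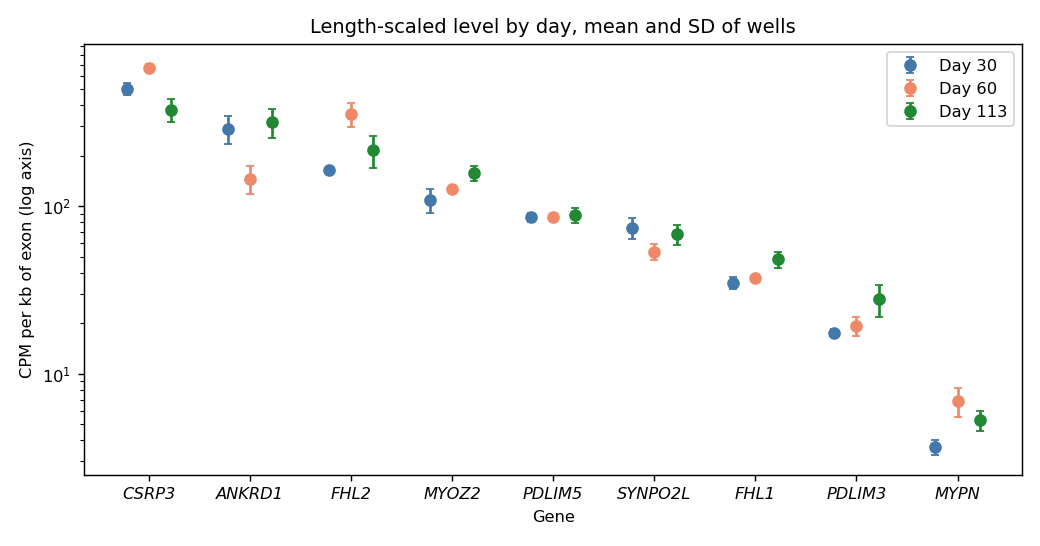
CPM per kilobase of exon (log axis) for each gene, with the mean and SD of the wells at Day 30 (blue), Day 60 (orange) and Day 113 (green). CSRP3 is highest and MYPN lowest on each day, while ANKRD1 and FHL2 exchange places at Day 60.

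Ratios between related genes within a library do not depend on how libraries are scaled to each other. The log2 ratio of ANKRD1 to its partner MYPN had a Day 30 mean of 4.47 ± 0.14 (SD, n = 4), a Day 60 mean of 2.58 ± 0.53 (SD, n = 3) and a Day 113 mean of 4.07 ± 0.46 (SD, n = 4). In linear terms ANKRD1 held 19.8 to 24.8 counts for each MYPN count at Day 30, 4.12 to 8.54 at Day 60 and 10.6 to 21.5 at Day 113. The Day 60 wells overlapped neither other day. The differences of -1.89 (Day 60 against Day 30) and 1.49 (Day 113 against Day 60) had two-sided exact permutation p-values of 0.0286 and 0.0571 (0.103 for both, adjusted over 9 tests), where 0.0286 is the smallest the design allows. The difference of -0.40 from Day 30 to Day 113 had an exact permutation p of 0.0857 (adjusted 0.129).

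The log2 ratio of FHL2 to FHL1, 2 genes of one family, had means of 2.38 ± 0.08 (Day 30), 3.39 ± 0.31 (Day 60) and 2.29 ± 0.47 (Day 113, SDs over the same wells). It was 1.00 higher at Day 60 than at Day 30 and then 1.10 lower (log2 difference -1.10), with exact permutation p-values of 0.0286 and 0.0571 (both 0.103 adjusted), and again no Day 60 well overlapped another day. Over the whole course the difference was -0.10 (exact permutation p 0.743), and it was 0.09 without Day 113 replicate 1. The log2 ratio of PDLIM3 to PDLIM5 had means of -2.57 ± 0.11, -2.44 ± 0.22 and -1.97 ± 0.37 (SD). Its difference of 0.60 from Day 30 to Day 113 had an exact permutation p of 0.0571 (adjusted 0.103), and those of 0.13 and 0.48 in the 2 intervals had 0.4 and 0.143 (adjusted 0.45 and 0.184). None of the 9 differences passed 0.05 after adjustment. Over 9 tests a single difference at the smallest exact permutation p of 0.0286 could not pass, so the design left little room for a call.

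**Figure D4:**
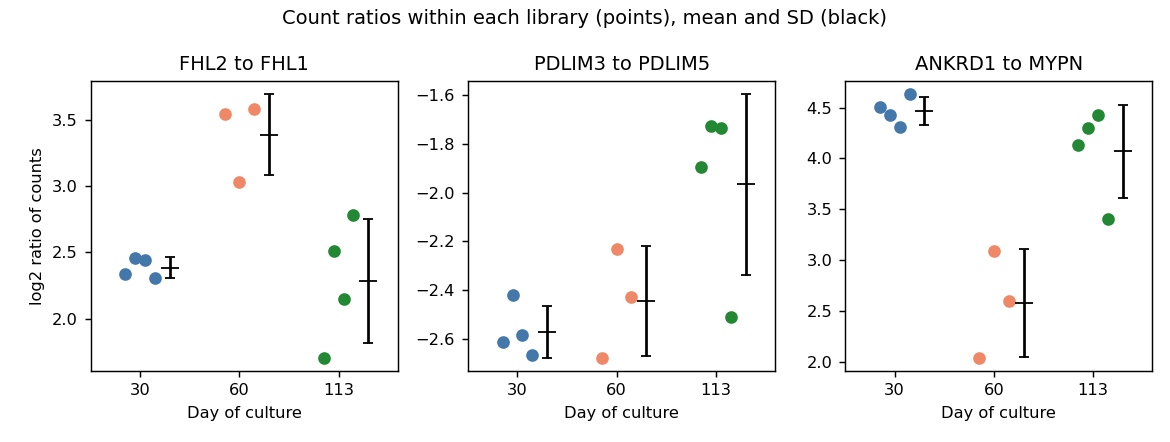
Log2 ratio of counts within each library (points) for 3 pairs of genes by day of culture, with the mean and SD in black. For FHL2 to FHL1 and for ANKRD1 to MYPN the 3 Day 60 wells stand apart from both other days, and for PDLIM3 to PDLIM5 Day 113 replicate 4 lies at -2.51, among the earlier wells.

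Across the wells of a day, the 9 genes shared their highest and lowest wells most clearly at Day 30. All values of a well also share its scaling factor, and the part of scaling or cell content in this was not tested. At Day 30, replicate 3 was lowest for all 9 genes and replicate 4 highest for 8 of the 9, with the remaining maximum, of PDLIM3, in replicate 2. Replicate 3 also had the lowest cardiomyocyte marker sum of that day, 32600 CPM, where replicate 4 had 44150 and replicate 1 had 44630 CPM. At Day 60, replicate 1 was highest for 5 genes and replicate 2 for 4, while replicate 2 was lowest for 5, among them FHL2, CSRP3 and MYPN. The Day 113 maxima were spread over replicates 1, 2, 3 and 4, with 2, 1, 3 and 3 genes. The spread between wells was 2.92% (FHL2) to 19.1% (ANKRD1) of the mean at Day 30, 3.02% (PDLIM5) to 19.4% (ANKRD1) at Day 60 and 10.0% (MYOZ2, PDLIM5) or more at Day 113, where FHL2 reached 21.7% and PDLIM3 was widest.

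For each gene the profiles most like its own were sought among 11946 others with a mean of at least 5 CPM, by the root mean square difference of log2 CPM over the 11 libraries after centring. Nearest to ANKRD1 were TGFB3, a transforming growth factor (0.185 log2 units), and CSRP1, a relative of CSRP3 found in smooth muscle (0.224), where the median gene differed by 0.579. Nearest to CSRP3 were FAM162A (0.0893) and BNIP3, a mitophagy receptor (0.124; median 0.452). Nearest to FHL2 were RETREG1, a receptor for autophagy of the endoplasmic reticulum (0.174), and MPC1, a subunit of the mitochondrial pyruvate carrier (0.179; median 0.56). For MYPN they were SYT13 (0.145) and TBC1D8 (0.147; median 0.485), for FHL1 ABCF3 (0.0736; median 0.333) and for MYOZ2 DDX1 (0.0833) and C2orf49 (0.0938; median 0.364).

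For PDLIM3 they were CCDC183-AS1 (0.121) and HOPX, a cardiac homeodomain cofactor (0.142; median 0.417), for PDLIM5 KIF5B, a kinesin heavy chain (0.0358), and CBX5 (0.0486; median 0.277), and for SYNPO2L GNL3L (0.119) and AMMECR1L (0.123; median 0.354). Among the 9 genes themselves the closest pair was FHL1 and PDLIM3 (0.16) and the most distant ANKRD1 and FHL2 (0.961). These are descriptions over 11 libraries that share their day, with no test.

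Other genes of the same families did not share one course. Of the 16 relatives in the table, 1 was higher and 5 were lower at Day 60 than at Day 30, 6 higher and 1 lower at Day 113 than at Day 60, and 4 higher and 5 lower over the whole course (medians of the log2 change -0.21, 0.13 and 0.10, beside -0.01, 0.00 and -0.02 over all genes). Of all genes, 4.39% were higher and 5.91% lower in the first of these comparisons, 12.9% and 11.1% in the second, and 17.3% and 17.2% in the third. SYNPO, the actin-binding synaptopodin, was 1.11 ± 0.15 (SE) higher on the log2 scale at Day 113 than at Day 30 (adjusted p 5.06e-05), and PDLIM7, a PDZ-LIM relative of PDLIM3 and PDLIM5, rose by 0.96 ± 0.16 (SE; adjusted p 0.000207). CSRP2, the LIM protein of smooth muscle, fell by 1.08 ± 0.10 (SE; adjusted p 1.18e-06), and PDLIM2 fell by 1.07 ± 0.18 (SE; adjusted p 0.000214). In the CSRP family, then, CSRP2 and CSRP3 were both lower at Day 113 than at Day 30, by different courses. CSRP2 was lower by Day 60 as well (-0.43, adjusted p 0.02), where CSRP3 was higher. CSRP1 had a log2 change of -0.05 over the course (adjusted p 0.885). It fell by Day 60 (-0.91, adjusted p 0.0179) and rose after it (0.86, adjusted p 0.0123).

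Of 22 partners at the Z-disc and on titin, 6 rose and 1 fell by Day 60, 7 rose and 3 fell after it, and 9 rose and 6 fell over the whole course (medians 0.04, 0.05 and 0.13). The shares of all genes that rose and fell were 4.39% and 5.91% by Day 60, 12.9% and 11.1% after it, and 17.3% and 17.2% over the course. XIRP2, an actin-binding Xin repeat protein, was 3.15 ± 0.24 (SE) higher in log2 CPM at the end (adjusted p 1.09e-07). Its Day 30 mean was 3.97 ± 0.557 CPM (SD, n = 4) and its Day 113 mean 35.4 ± 7.81 CPM (SD, n = 4). DES, the intermediate filament desmin that links Z-discs, rose by 1.90 ± 0.14 (SE; adjusted p 7.96e-08). ACTN2, the alpha-actinin to which most of the 9 proteins bind, fell by 0.64 ± 0.11 (SE; adjusted p 4e-04), from 1710 ± 293 to 1100 ± 32.4 CPM (SD, n = 4 each), and LMCD1 fell by 0.63 ± 0.19 (SE; adjusted p 0.0179).

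YAP and TAZ with TEAD factors form a pathway that responds to cell tension, and ANKRD1 is one of its usual target genes. Of 24 genes of the pathway and its targets in the table, 0 were higher and 10 lower at Day 60 than at Day 30, where 4.39% and 5.91% of all genes were, and the median log2 change was -0.28. After Day 60, 8 were higher and 3 lower (median 0.09), where 12.9% and 11.1% of all genes were. The change differed between the intervals for 10 of the 24. Of these, 9 went in the direction of ANKRD1 (4.97% of all genes) and 1 in the other (4.38%). The list mixes regulators of the pathway with its targets, so these counts do not measure its activity. After Day 60, WWTR1 (the gene of TAZ), TEAD2 and TEAD4 were higher (log2 changes 0.73, 0.55 and 0.45). TEAD1 and TEAD3 were lower (-0.48 and -0.35), and YAP1 did not pass (-0.23, adjusted p 0.0875). CCN1 and CCN2, matricellular targets of the pathway, were singled out after their values were seen. Their log2 changes were -0.90 (adjusted p 0.00796) and -0.77 (adjusted p 0.0354) before Day 60, and 0.91 (adjusted p 0.00348) and 0.84 (adjusted p 0.0116) after it. Other genes of the list took other courses. TGFB2 was lower in both intervals (-0.88, adjusted p 0.00104, then -0.77, adjusted p 0.00116). AXL and NUAK2 were lower by Day 60 (-0.68, adjusted p 0.00635, and -2.37, adjusted p 0.0047) and did not pass after it (-0.17 and -0.004).

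Over the whole course 4 of the 24 genes of the YAP-TEAD list rose and 9 fell, where 17.3% and 17.2% of all genes did. AMOTL1, an angiomotin that binds YAP, rose by 0.77 ± 0.14 (SE; adjusted p 0.000548) and F3, tissue factor, by 0.54 ± 0.16 (SE; adjusted p 0.017), while AMOT fell by 2.67 ± 0.26 (SE; adjusted p 1.25e-06) and the kinase NUAK2 by 2.37 ± 0.43 (SE; adjusted p 0.000488). Fibroblasts express many of these genes, and the fibroblast marker sums given above were lowest at Day 60 too. Endodermal marker sums also fell over the first interval, from 430 to 1260 CPM at Day 30 to 46.7 to 54.1 CPM at Day 60. The part of these or other cell types in the counts of this list was not tested.

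Serum response factor and its cofactors, the MRTFs, form another pathway that reads the state of actin. Of its 15 genes, 0 rose and 3 fell by Day 60, 5 rose and 0 fell after it, and 6 rose and 5 fell over the course (medians -0.14, 0.24 and 0.25), against 4.39% and 5.91%, 12.9% and 11.1%, and 17.3% and 17.2% of all genes. The list holds 3 of the 5 smooth muscle markers, ACTA2, TAGLN and CNN1. After Day 60, 3 of those 5 markers and 6 of the 9 fibroblast markers were higher, and the part of such cells in these counts was not tested. SRF rose by 0.90 ± 0.13 (SE; adjusted p 7.66e-05) and ACTA2, the smooth muscle actin, by 1.76 ± 0.15 (SE; adjusted p 3.41e-07). FOS fell by 1.18 ± 0.29 (SE; adjusted p 0.00477) and JUNB by 0.49 ± 0.17 (SE; adjusted p 0.0341).

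Calcineurin is the phosphatase that MYOZ2 tethers, and NFAT factors are its substrates. Of 16 genes of that signalling list, 1 was higher and 1 lower at Day 60 than at Day 30 (median 0.03), where 4.39% and 5.91% of all genes were. After Day 60, 0 rose and 3 fell (median -0.21; 12.9% and 11.1% of all genes), and over the course 2 rose and 5 fell (median -0.16; 17.3% and 17.2% of all genes). The calcineurin subunit genes PPP3CB and PPP3R1 rose by 0.28 ± 0.10 (SE; adjusted p 0.0306) and 0.25 ± 0.08 (SE; adjusted p 0.025). NFATC2 fell by 1.33 ± 0.19 (SE; adjusted p 7.21e-05), and RCAN3, a regulator of calcineurin, by 0.79 ± 0.18 (SE; adjusted p 0.00248).

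A list of 15 cardiac genes known to respond to load shares 6 genes with the lists above. Of it, 5 rose and 3 fell by Day 60, 4 rose and 2 fell after it, and 7 rose and 2 fell over the course (medians 0.31, 0.22 and 0.31), beside the same shares of all genes as for the other lists. XIRP2, given above, and NPPA, the atrial natriuretic peptide (2.31 ± 0.21, SE; adjusted p 6.56e-07), rose most from Day 30 to Day 113. MYH7, the slow myosin heavy chain (-0.73 ± 0.13, SE; adjusted p 0.000521), and XIRP1 (-0.47 ± 0.11, SE; adjusted p 0.00366) were the 2 that fell.

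**Figure D5:**
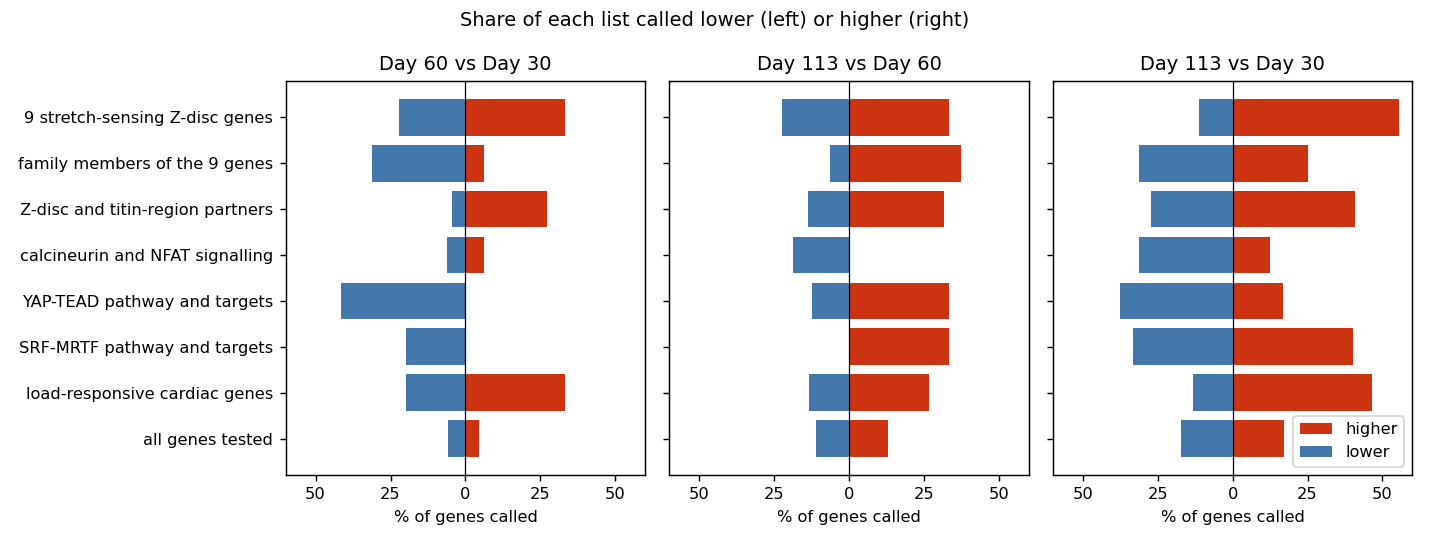
Share of the genes of each list (y axis) that passed an adjusted p of 0.05 as higher (red, to the right) or lower (blue, to the left) for the 3 pairs of days, with all 19990 genes in the bottom bar. No gene of the YAP-TEAD list was higher and 10 of 24 were lower at Day 60, and 5 of the 9 stretch-sensing genes were higher at Day 113 than at Day 30.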

How the data were processed

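The deposited table holds raw read counts (whole numbers) by gene symbol, 19990 rows and 11 libraries. The submitters' processing notes name STAR 2.5.3a, featureCounts 2.0.3 and hg38, and the annotation and strand setting are not given in the sources used here. The deposited TPM table was not used for results, because count over TPM, which should give a constant length per gene up to a library factor, gave lengths that varied 14.2- to 231-fold between libraries for the 9 genes.

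Counts were tested with edgeR 4.0.16 (glmQLFit, glmQLFTest; R 4.3.3), with TMM scaling, day as the only factor and all 11 libraries in one fit. The filterByExpr step (minimum count 10) removed 0 genes. P-values were adjusted by Benjamini-Hochberg over 19990 genes at a threshold of 0.05. The standard error is the size of the log2 change over the root of the F statistic. CPM used TMM effective library sizes. Count ratios used a pseudocount of 0.5 and exact permutation tests (scipy 1.17.1). Alternatives included DESeq2 1.42.0 and limma-voom (limma 3.58.1). Wells of a day differed by more than sampling noise (chi-square per degree of freedom 11.7 to 88.7) and were counted as separate samples.

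Named genes were all 9 members, for each list the 2 highest and 2 lowest passing changes from Day 30 to Day 113, for each member the 2 nearest profiles (1 of them is not reported here), and the highest marker of each cell type. CCN1, CCN2, TGFB2, AXL, YAP1, WWTR1, the TEAD genes and the further cell type markers were named after their values were seen. The members and lists were chosen with earlier results of these data known. The marker and list genes FHL5, VGLL2, MYH11, MYF5, PAX7 and MYH8 were not analysed here, nor were protein sequences.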

Additional observations from a re-analysis of the deposited data

Results flagged for a closer look

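The change in the second interval (Day 60 to Day 113) minus that in the first (Day 30 to Day 60) passed edgeR's test of the difference itself for 5 of the 9 genes. On the log2 scale it was 2.11 for ANKRD1 (adjusted p 0.0013) and 0.82 for SYNPO2L (adjusted p 0.043), both lower at Day 60. It was -1.82 for FHL2 (adjusted p 0.00099), -1.25 for CSRP3 (adjusted p 0.0021) and -1.30 for MYPN (adjusted p 0.0046), all higher at Day 60. The call of SYNPO2L was lost in 11 of 21 alternatives, with an adjusted p of up to 0.24 without Day 60 replicate 3, and that of MYPN without Day 60 replicate 1 (0.061). For ANKRD1, FHL2 and CSRP3 it held in all 21 alternatives that could give it.

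PDLIM5 in Day 113 replicate 2, at 832.3 CPM, stood apart from the other wells of its day (1013 to 1045 CPM), with a gap of 0.846 of the whole range. It was 1 of 24 groups examined for such a gap, and chance gives about 1 in 20.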

How the results depend on the processing

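Leaving out the filter changed nothing, since it had removed 0 genes. Of 783 values of log2 changes of the 9 genes under the other alternatives, 715 kept their direction and side of the threshold, 43 lost a call, 12 gained one and 13 turned sign. The calls of ANKRD1, FHL2 and MYPN at Day 60, those of ANKRD1, FHL2 and CSRP3 after Day 60, and those of FHL1, MYOZ2, MYPN and PDLIM3 from Day 30 to Day 113 held under all 22 of these alternatives. The values that turned sign were not called in any setting. For the difference between intervals, PDLIM5 gave -0.0036 with RLE size factors and in DESeq2, -0.078 with upper-quartile scaling, -0.0259 with a CPM of at least 1 in 3 libraries and -0.0339 with the replicate block, and it ranged from -0.0231 to 0.0971 over left-out wells. PDLIM5 also gave -0.031 for Day 113 against Day 60 with upper-quartile scaling. For Day 60 against Day 30 it gave -0.0984 scaled to cardiomyocyte marker counts and ranged from -0.0197 to 0.0454 over left-out wells, the lowest without Day 30 replicate 3. FHL1 gave -0.0125 for Day 60 against Day 30 scaled to cardiomyocyte marker counts. MYOZ2 gave -0.0425 for the difference between intervals with the replicate block. The cause was not tested.

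An adjusted p under 0.01 left 3 of the 9 genes in each interval, and 937, 2545, 4552, 4800 and 618 of all genes for the 2 intervals, the whole course, any change and the difference between intervals, against 2060, 4790, 6889, 7411 and 1868, since the threshold is stricter. Leaving out 1 well at a time gave 3 to 5 of the 9 genes called at Day 60 against Day 30 and 3 to 5 for the difference between intervals, and 1220 to 2618 and 643 to 2221 of all genes. The lowest counts of all genes came without Day 60 replicate 3 (1220; 774 for the difference), Day 60 replicate 1 (1259; 643) and Day 30 replicate 2 (1323). The difference in the log2 ratio of FHL2 to FHL1 from Day 30 to Day 113 ranged from -0.2642 to 0.0944, the latter without Day 113 replicate 1.

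The labels number the wells alike on each day. Same-numbered wells correlated at 0.001 to 0.289 in their deviations from the day means, over 0.1 in 8 of 10 pairs, with both exceptions in Day 60 replicate 3 and all 4 pairs of Day 30 and Day 113 between 0.119 and 0.163. A well correlated best with its own number in 15 of 20 comparisons, a hint of pairing from the data that the labels do not state. The block is therefore given as an alternative. It changed 1 call of the 9 genes between days, that of MYPN for Day 113 against Day 60. With the replicate block, 5, 6 and 6 of the 9 genes and 2474, 4954 and 7143 of all genes were called for the 3 pairs of days. For the difference between intervals they were 5 and 2366, and for any change 8 and 7775. Over same-numbered wells in the block, no ratio could pass, since 3 pairs give an exact p of at least 0.25 and 4 pairs 0.125.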

Other observations

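At Day 113 the wells parted in a pattern that crossed the 9 genes. Replicates 1 and 3 were both above replicates 2 and 4 for 5 genes (ANKRD1, FHL1, PDLIM3, PDLIM5 and SYNPO2L) and both below them for 3 (FHL2, CSRP3 and MYOZ2), with MYPN mixed. The summed fibroblast markers of the same wells were 16140 and 13050 CPM in replicates 1 and 3, and 7577 and 6416 CPM in replicates 2 and 4. Fibroblast markers were not alone in this. Endothelial sums were 806.4 and 398.9 CPM against 342.2 and 211.0 CPM, and library totals 34.5 and 34.4 M against 27.0 and 24.1 M. The cardiomyocyte and smooth muscle sums did not part the wells in this way. Which of these goes with the grouping cannot be told apart here. The grouping of these wells was noticed in the data and was not tested.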
